A study of Mus musculus with 14 samples.

Results

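Gene expression in the male germ cells of control mice was compared between postnatal day 7 (P7 Ctrl, 2 libraries) and postnatal day 3 (P3 Ctrl, 2 libraries). These 4 libraries were chosen by their labels from 14. Both groups are C57BL/6 and share the genotype Vasa-Cre; Jmjd1a-/+; Jmjd1b-/+, so the controls themselves carry the Cre driver and a single copy of each of the 2 genes under study. Vasa-Cre drives recombination in the germ line. Jmjd1a and Jmjd1b, listed as Kdm3a and Kdm3b, encode demethylases of lysine 9 of histone H3. For 1 comparison the double knockouts at both ages (P7 DKO and P3 DKO, Vasa-Cre; Jmjd1a-/-; Jmjd1b-/-, 2 libraries each) are set beside the controls, and the wild type at day 3 (P3 WT, labelled WT, 2 libraries) gives side values. A day 7 wild type is not analysed here. The labels name the cells as postnatal male germ cells, state no sort, and leave it unsaid whether each replicate is its own animal. The p-values therefore describe no more than how far these samples spread.

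In the mouse, male germ cells rest in the fetal testis as prospermatogonia. They resume division and move to the basement membrane of the seminiferous tubule in the days after birth. Some found the pool of spermatogonial stem cells, which depends on GDNF from Sertoli cells, and others enter differentiation in response to retinoic acid. The transition closes a period in which DNA methylation is laid down anew with Dnmt3l and the piRNA pathway, and it ends the expression of several pluripotency and primordial germ cell genes. The comparison of the 2 ages asks which transcripts differ across this window when the genotype is the same.

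The promoters of 4 genes that the results turn on are shown here, a keratin pair among the largest falls, and Stra8 and Nanos2, germ cell genes whose rises ended when single libraries were left out (given with their values below). The sequences are from RefSeq (GRCm38.p6) and run from 250 bases before to 50 bases after the annotated start, in the direction of transcription. Capitals mark the motifs searched, on either strand. Retinoic acid receptors recognise the core AGGTCA, and the box CCAAT is bound by NF-Y. The letters TATAAA were taken as the TATA box, the letters CACGTG as the E-box and the letters GGGCGG as the GC box. Krt18 is at chr15:102027966-102028265 on the plus strand, Krt8 at chr15:102004293-102004592 on the minus strand, Stra8 at chr6:34920698-34920997 and Nanos2 at chr7:18987274-18987573, both on the plus strand.
Krt18: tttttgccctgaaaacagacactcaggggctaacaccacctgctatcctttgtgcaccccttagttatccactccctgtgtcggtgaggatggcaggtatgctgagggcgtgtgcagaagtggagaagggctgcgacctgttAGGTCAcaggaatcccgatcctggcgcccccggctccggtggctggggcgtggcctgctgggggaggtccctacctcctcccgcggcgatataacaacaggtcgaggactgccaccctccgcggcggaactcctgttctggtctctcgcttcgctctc
Krt8: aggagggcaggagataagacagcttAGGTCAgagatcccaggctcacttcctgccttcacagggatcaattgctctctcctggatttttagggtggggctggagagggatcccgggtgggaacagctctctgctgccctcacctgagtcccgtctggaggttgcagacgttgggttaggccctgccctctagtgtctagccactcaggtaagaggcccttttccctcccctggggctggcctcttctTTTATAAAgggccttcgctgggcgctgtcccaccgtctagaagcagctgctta
Stra8: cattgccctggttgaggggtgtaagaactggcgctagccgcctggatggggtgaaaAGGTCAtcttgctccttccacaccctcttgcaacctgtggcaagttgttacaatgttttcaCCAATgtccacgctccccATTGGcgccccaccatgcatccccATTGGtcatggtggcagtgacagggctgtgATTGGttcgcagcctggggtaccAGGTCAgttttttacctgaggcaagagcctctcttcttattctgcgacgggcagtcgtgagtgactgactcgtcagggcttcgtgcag
Nanos2: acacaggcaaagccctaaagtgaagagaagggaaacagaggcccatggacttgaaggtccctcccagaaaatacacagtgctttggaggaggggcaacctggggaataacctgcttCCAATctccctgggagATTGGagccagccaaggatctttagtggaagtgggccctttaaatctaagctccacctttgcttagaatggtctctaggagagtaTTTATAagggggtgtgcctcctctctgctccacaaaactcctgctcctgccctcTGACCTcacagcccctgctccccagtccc

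The AGGTCA motif occurred in the 4 promoters shown, and in none of the promoters of Gsc (1 start) and Dnmt3l (3 starts), which were searched too. CCAAT occurred in those of Stra8 (4 matches) and Nanos2 (2 matches) and in neither keratin promoter. The TATA box occurred in those of Krt8 and Nanos2. Of the tested genes, 9941 had a promoter of this length in the table. CCAAT was present in 47.5% of the 1163 promoters of genes that rose, 31.5% of the 1404 of genes that fell and 39.3% of all 9941. AGGTCA was present in 9.72% of those that rose, 13.8% of those that fell and 12.03% of all, and TATAAA in 6.10%, 9.12% and 6.54% in the same order. The GC box was found in 67.9%, 64.7% and 65.8%, the E-box in 9.54%, 10.3% and 10.7%, and the E2F motif (searched as TTTGGCG and as TTTCGCG) in 4.21%, 3.56% and 4.40%. AGGTCA as a direct repeat with 5 bases between was in none of the 9941. These matches describe the sequences and are no evidence of binding.

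The values are RPKM, and a change is the difference in log2(RPKM + 1) ± SE from a limma fit over all 14 libraries, with a Benjamini-Hochberg adjusted p over 13163 genes. On this scale the change of a low gene is understated. The depth estimated from the values was 21.6 and 24.8 M fragments (M for mega) in P7 Ctrl, against 39.4 and 43.85 M in P3 Ctrl. Genes listed above 0 numbered 17785 and 17824 in P7 Ctrl, against 19921 and 19497 in P3 Ctrl. For a transcript of 2 kb, 3 fragments amount to 0.0694 and 0.0605 RPKM in P7 Ctrl, against 0.0381 and 0.0342 RPKM in P3 Ctrl. The replicates correlated across genes at r = 0.981 in P7 Ctrl and 0.970 in P3 Ctrl, with median absolute differences of 0.066 and 0.202 in log2(RPKM + 1). Among genes that fell, P3 Ctrl replicate 1 was above replicate 2 in 73.9%, among genes that rose in 30.5%, and among all tested genes in 50.6%.

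The genes that define germ cells were abundant at both ages, and neither targeted gene passed the test. Ddx4, the germ cell RNA helicase whose promoter drives the Cre, had 239.8 and 238 RPKM in P7 Ctrl, against 238 and 251 RPKM in P3 Ctrl. Dazl, which binds RNA in germ cells, had 382 and 396 RPKM in P7 Ctrl, against 389.9 and 409 RPKM in P3 Ctrl. Mael, a factor of transposon silencing, had 367 and 352 RPKM in P7 Ctrl, against 397 and 358 RPKM in P3 Ctrl. The ranges of the 2 ages overlap for these 3 genes. Of 22 tested pan-germ-cell genes 3 rose, 3 fell and 16 did not pass, with a median log2 change of -0.052. The 27.3% that passed was close to the 26% of all tested genes. Kdm3a had 27.2 and 27.1 RPKM in P7 Ctrl, against 28.4 and 26.3 RPKM in P3 Ctrl (log2 change -0.010 ± 0.11, adjusted p = 0.955), and Kdm3b had 17.3 and 16.1 RPKM in P7 Ctrl, against 10.2 and 13.5 RPKM in P3 Ctrl (log2 change 0.47 ± 0.21, adjusted p = 0.118). In the wild type, with both copies, Kdm3a had 44.1 and 45.2 RPKM in P3 WT and Kdm3b had 26.9 and 26.9 RPKM in P3 WT, above every Ctrl library. In the double knockouts Kdm3a had 8.97 and 7.59 RPKM in P7 DKO, against 12.1 and 14.3 RPKM in P3 DKO, and Kdm3b had 6.49 and 6.73 RPKM in P7 DKO, against 4.26 and 4.48 RPKM in P3 DKO, below every Ctrl library.

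Between day 3 and day 7 many genes changed in the control germ cells, in both directions. Of the 13163 genes 3416 passed (26%), 1525 of them higher (11.6%) and 1891 lower (14.4%) in P7 Ctrl. The P7 Ctrl libraries lay apart from the P3 Ctrl libraries for all 3416 of these, and for 9871 (75%) of all tested genes. Past a 2-fold change there were 227 higher (1.72%) and 856 lower (6.5%). The median log2 change over all tested genes was 0.025. In these bulk libraries fewer cells of a type and less RNA per cell cannot be told apart. Of the 136 small RNA loci 1 rose and 15 fell, and of 910 predicted genes 91 rose and 112 fell. The count rested on all 4 libraries: it was 697 without P7 Ctrl replicate 1, 721 without P7 Ctrl replicate 2, 842 without P3 Ctrl replicate 1 and 2616 without P3 Ctrl replicate 2. Set against P3 WT, a group without Cre, it was 1530 (786 higher and 744 lower). A fit of the 4 Ctrl libraries alone, without the spread of the other groups, gave 4707 (2173 higher and 2534 lower). The balance depended on the scaling and on the level: quantile normalization gave 1688 higher and 1588 lower, and a mean of 5 RPKM or more gave 1225 higher and 992 lower. In the lists that follow, counts with 1 library left out are given for these 4 libraries in this order, and the counts against P3 WT come after them. For the pan-germ-cell genes left-out libraries gave 1, 1, 2 and 1 falls with 0, 0, 0 and 2 rises, and P3 WT 3 falls with no rise.

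**Figure D1:**
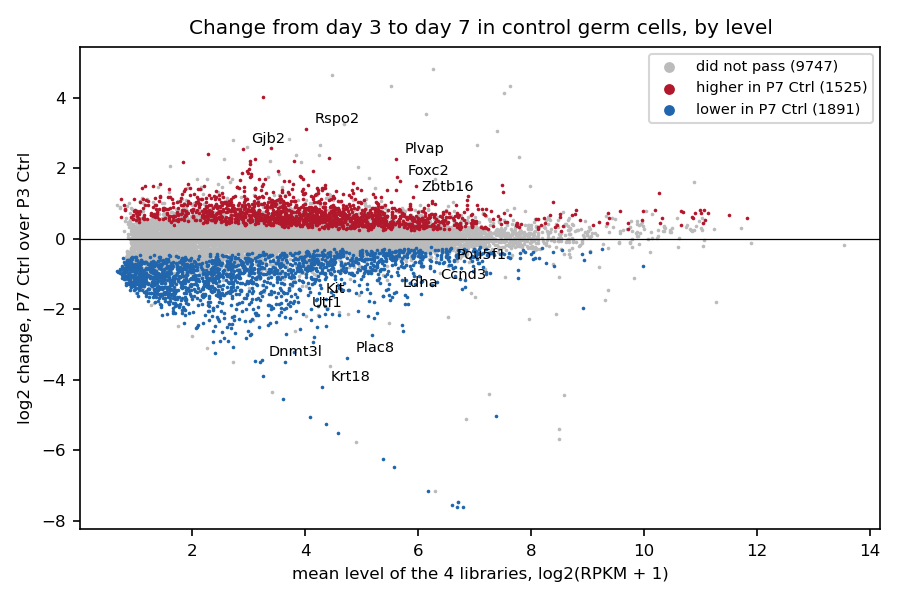
Log2 change from P3 Ctrl to P7 Ctrl (vertical axis) against the mean of the 4 libraries in log2(RPKM + 1) (horizontal axis), 1 point per tested gene, with the 1525 genes higher in P7 Ctrl in red, the 1891 lower in blue and the rest in grey. Large falls lie at low and middle levels, and the points under -5 are small RNA loci and 1 predicted gene.

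The balance of falls and rises followed the level of the gene. A gene under 1 RPKM in both libraries of 1 age was tested only where both libraries of the other age reached 1 RPKM. Such a gene could differ in 1 direction only, in the lists below as well. Under a mean of 2 RPKM over the 4 libraries 26.4% fell and 4.20% rose, with a median log2 change of -0.31. From 2 to 5 RPKM 19.3% fell and 8.11% rose, and from 5 to 20 RPKM 12.6% fell and 14.2% rose. From 20 to 100 RPKM 9.63% fell and 13.6% rose, and from 100 RPKM upward 9.06% fell and 12.4% rose. A set of 170 genes was chosen at 2 RPKM or more in P3 Ctrl and under 0.5 RPKM in P7 Ctrl, so its levels in Ctrl are no finding. In P3 WT, the shallowest group at 13.55 and 14.95 M fragments, its median was 0.907 RPKM. In the DKO cells it was 0.320 RPKM at P7 and 4.24 RPKM at P3. The converse set, 2 RPKM or more in P7 Ctrl and under 0.5 in P3 Ctrl, held 13 genes. The greater depth of P3 Ctrl moves with this pattern, and its part in it was not tested.

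Keratins, the intermediate filament proteins of epithelia, were among the largest falls. Of the 12 listed keratin genes 8 were tested, and of these 6 fell and none rose, with a median log2 change of -2.10 against 0.025 for all genes tested. Krt18 (chromosome 15, 102028180 to 102032027, GRCm38) had 0.772 and 0.998 RPKM in P7 Ctrl, against 50.1 and 22.7 RPKM in P3 Ctrl (log2 change -4.21 ± 0.67, adjusted p = 0.00351). Its filament partner Krt8 (chromosome 15, 101996698 to 102004482) had 0.262 and 0.384 RPKM in P7 Ctrl, against 14.7 and 6.95 RPKM in P3 Ctrl (log2 change -3.08 ± 0.35, adjusted p = 0.00114). Krt7 had 0.425 and 0.314 RPKM in P7 Ctrl, against 19.8 and 10.1 RPKM in P3 Ctrl (log2 change -3.47 ± 0.59, adjusted p = 0.00445). P3 Ctrl replicate 1 was above replicate 2 for each of the 3, while both replicates at day 7 lay under 1 RPKM. These 3 therefore met the filter (1 RPKM or more in at least 2 of the 4 Ctrl libraries) through P3 Ctrl alone. It could admit them only as lower at day 7, and the count and median of the list include them. Krt19, a small type I keratin, had 1.29 and 0.772 RPKM in P7 Ctrl, against 11.5 and 8.32 RPKM in P3 Ctrl (log2 change -2.42 ± 0.32, adjusted p = 0.00189), and Krt17 had 1.19 and 1.22 RPKM in P7 Ctrl, against 8.25 and 5.20 RPKM in P3 Ctrl (log2 change -1.78 ± 0.34, adjusted p = 0.00642). The wild type stood between the groups, with 10.0 and 9.41 RPKM in P3 WT for Krt18 and 2.67 and 1.85 RPKM in P3 WT for Krt8. The summed level of the 12 listed genes was 10.9 and 11.3 RPKM in P7 Ctrl, against 118 and 65.2 RPKM in P3 Ctrl. With 1 library left out the list had 4, 5, 4 and 5 falls with no rise, and P3 WT 3 falls with no rise.

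**Figure D2:**
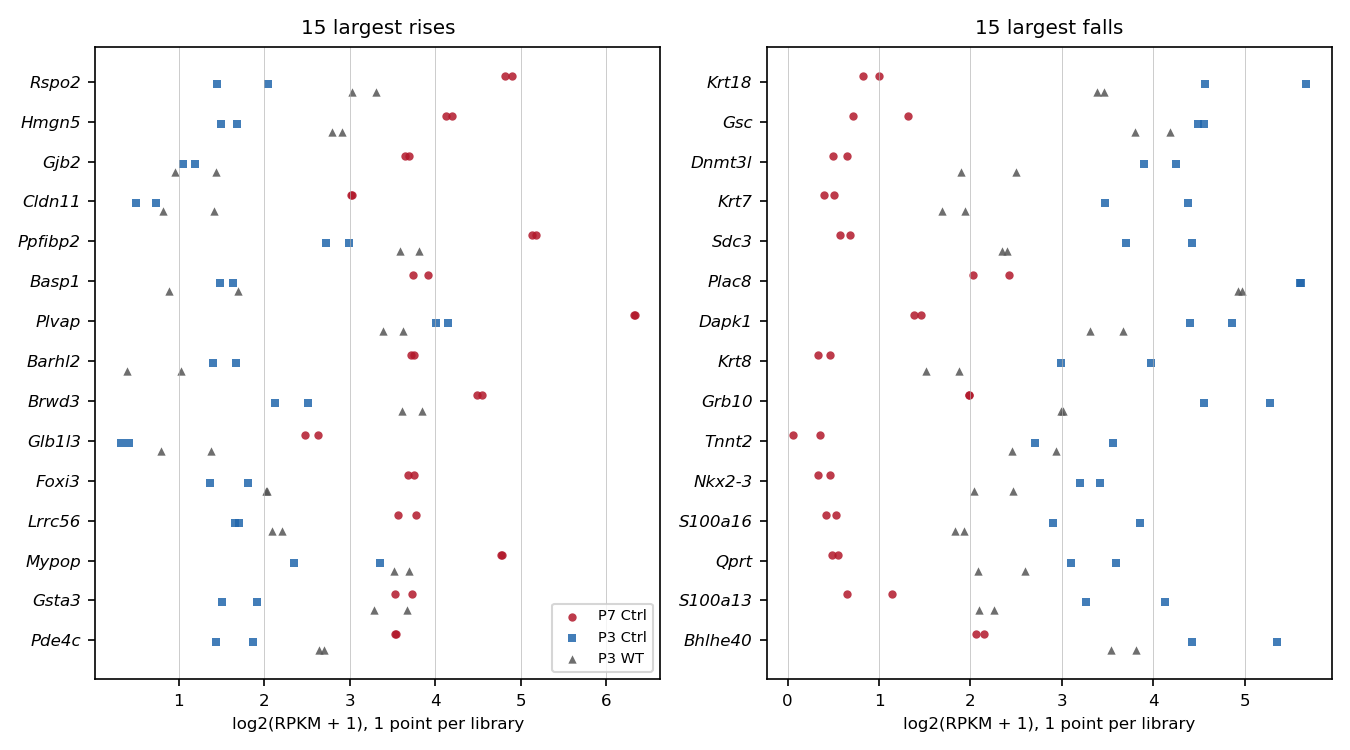
Levels of the 15 genes with the largest rises (left) and the 15 with the largest falls (right), in log2(RPKM + 1) on the horizontal axis, 1 point per library of P7 Ctrl (red circles), P3 Ctrl (blue squares) and P3 WT (grey triangles). For 10 of the 15 rises and 14 of the 15 falls both P3 WT libraries lie between the P7 Ctrl and the P3 Ctrl libraries.

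Several basement membrane and attachment genes fell as well. Of 25 tested genes of the collagen, laminin and integrin list (35 listed) 10 fell, 1 rose and 14 did not pass, with a median of -0.26. Col4a1 and Col4a2 encode the chains of the main type IV collagen of basement membranes. Col4a1 had 2.15 and 2.40 RPKM in P7 Ctrl, against 19.9 and 13.2 RPKM in P3 Ctrl (log2 change -2.39 ± 0.35, adjusted p = 0.00272), and Col4a2 had 2.33 and 2.14 RPKM in P7 Ctrl, against 16.9 and 10.5 RPKM in P3 Ctrl (log2 change -2.15 ± 0.31, adjusted p = 0.00264). The laminin chain gene Lama1 fell too, with 0.694 and 0.575 RPKM in P7 Ctrl, against 3.62 and 2.84 RPKM in P3 Ctrl (log2 change -1.36 ± 0.19, adjusted p = 0.00246). Lamb1, a laminin chain that was more abundant, had 25.5 and 26.7 RPKM in P7 Ctrl, against 90.5 and 72.0 RPKM in P3 Ctrl (log2 change -1.59 ± 0.24, adjusted p = 0.0028). Among integrins Itgb3 fell to 4.92 and 5.22 RPKM in P7 Ctrl, against 15.4 and 11.9 RPKM in P3 Ctrl, and Itga5, the fibronectin receptor subunit, to 1.20 and 1.16 RPKM in P7 Ctrl, against 4.37 and 3.78 RPKM in P3 Ctrl. Itga6, a laminin receptor subunit used to enrich spermatogonial stem cells, had 37.6 and 38.3 RPKM in P7 Ctrl, against 26.7 and 30.6 RPKM in P3 Ctrl and did not pass (adjusted p = 0.218). The gene that rose, Lama5, had 12.7 and 12.6 RPKM in P7 Ctrl, against 8.44 and 7.48 RPKM in P3 Ctrl (log2 change 0.61 ± 0.11, adjusted p = 0.00631). Left-out libraries gave 4, 5, 4 and 9 falls with 0, 0, 1 and 1 rises, and P3 WT 4 falls with 2 rises.

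Adhesion and junction genes went both ways: of 23 tested 6 fell, 4 rose and 13 did not pass (median -0.31). The tight junction gene Cldn7 had 0.213 and 0.506 RPKM in P7 Ctrl, against 3.49 and 2.57 RPKM in P3 Ctrl (log2 change -1.57 ± 0.31, adjusted p = 0.00795). Thy1, a surface antigen of spermatogonial stem cells in mouse, had 5.89 and 6.42 RPKM in P7 Ctrl, against 22.1 and 18.3 RPKM in P3 Ctrl (log2 change -1.56 ± 0.44, adjusted p = 0.0272). Cdh2 (N-cadherin) had 5.07 and 5.23 RPKM in P7 Ctrl, against 10.7 and 10.8 RPKM in P3 Ctrl (log2 change -0.93 ± 0.10, adjusted p = 0.00113). Cdh1 (E-cadherin) had 13.8 and 13.7 RPKM in P7 Ctrl, against 33.6 and 24.2 RPKM in P3 Ctrl and did not pass (adjusted p = 0.0593). The virus receptor and junction gene Cxadr rose to 7.38 and 6.90 RPKM in P7 Ctrl, against 3.28 and 2.86 RPKM in P3 Ctrl (log2 change 1.001 ± 0.24, adjusted p = 0.0162). Cldn11, a claudin of Sertoli cell junctions, rose as well and is given below with the Sertoli markers. Left-out libraries gave 1, 2, 1 and 4 falls with 1, 0, 1 and 3 rises, and P3 WT 3 falls with 3 rises.

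Other large falls were those of genes with diverse roles. Gsc (chromosome 12, 104471209 to 104473330), the homeobox factor goosecoid and a target of Nodal and activin signalling, had 0.648 and 1.49 RPKM in P7 Ctrl, against 21.4 and 22.5 RPKM in P3 Ctrl (log2 change -3.50 ± 0.34, adjusted p = 0.000565). It had 17.1 and 13.0 RPKM in P3 WT, nearer to P3 Ctrl than to P7 Ctrl. Plac8, a small cysteine-rich protein, had 4.34 and 3.08 RPKM in P7 Ctrl, against 47.5 and 48.0 RPKM in P3 Ctrl (log2 change -3.38 ± 0.33, adjusted p = 0.000621). Sdc3, a heparan sulfate proteoglycan of the cell surface, had 0.608 and 0.493 RPKM in P7 Ctrl, against 20.5 and 12.01 RPKM in P3 Ctrl (log2 change -3.43 ± 0.48, adjusted p = 0.00248). The groups do not overlap for these 3 genes, as for every gene that passed and 75% of all tested genes. Dapk1, a kinase linked to cell death, had 1.61 and 1.75 RPKM in P7 Ctrl, against 28.0 and 20.2 RPKM in P3 Ctrl (log2 change -3.21 ± 0.40, adjusted p = 0.00158). Nkx2-3, a homeobox gene, had 0.264 and 0.379 RPKM in P7 Ctrl, against 8.18 and 9.72 RPKM in P3 Ctrl (log2 change -2.91 ± 0.30, adjusted p = 0.000733), and Tnnt2, cardiac troponin T, had 0.278 and 0.0399 RPKM in P7 Ctrl, against 10.8 and 5.51 RPKM in P3 Ctrl (log2 change -2.92 ± 0.37, adjusted p = 0.00169). Qprt, an enzyme of NAD synthesis, and the calcium-binding proteins S100a13 and S100a16 fell with log2 changes of -2.82, -2.80 and -2.91. Bhlhe40, a repressor of the circadian clock, had 3.42 and 3.17 RPKM in P7 Ctrl, against 39.9 and 20.4 RPKM in P3 Ctrl (log2 change -2.78 ± 0.53, adjusted p = 0.00647).

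Most pluripotency and primordial germ cell genes fell. Of 22 tested (26 listed) 13 fell, 3 rose and 6 did not pass, and the median was -0.76 against 0.025 for all tested genes. The core factor Pou5f1 (Oct4) remained well expressed, with 69.8 and 67.4 RPKM in P7 Ctrl, against 113 and 118 RPKM in P3 Ctrl (log2 change -0.74 ± 0.22, adjusted p = 0.0364). Utf1 (chromosome 7, 139943789 to 139945112), a chromatin factor of pluripotent cells and early spermatogonia, had 5.04 and 4.50 RPKM in P7 Ctrl, against 21.4 and 27.3 RPKM in P3 Ctrl (log2 change -2.13 ± 0.25, adjusted p = 0.00141). Sox2, the partner of Oct4 in pluripotent cells, had 1.49 and 1.80 RPKM in P7 Ctrl, against 5.08 and 9.31 RPKM in P3 Ctrl (log2 change -1.58 ± 0.35, adjusted p = 0.0112), and Esrrb, an orphan nuclear receptor, had 1.69 and 1.66 RPKM in P7 Ctrl, against 7.42 and 6.61 RPKM in P3 Ctrl (log2 change -1.58 ± 0.24, adjusted p = 0.00285). Alpl, the alkaline phosphatase long used to stain primordial germ cells, had 17.7 and 17.4 RPKM in P7 Ctrl, against 49.7 and 48.3 RPKM in P3 Ctrl (log2 change -1.43 ± 0.18, adjusted p = 0.00169). Prdm1 (Blimp1) and Tfap2c, which specify primordial germ cells, had log2 changes of -1.14 and -1.04 (adjusted p = 0.0195 and 0.00442). Nanog had 0.773 and 0.969 RPKM in P7 Ctrl, against 1.77 and 1.91 RPKM in P3 Ctrl, and did not pass (adjusted p = 0.148). The members that rose were Nanos3, Zfp42 (Rex1) and Dnd1, Zfp42 with 13.6 and 13.9 RPKM in P7 Ctrl, against 5.71 and 8.72 RPKM in P3 Ctrl (log2 change 0.87 ± 0.26, adjusted p = 0.0338). The RNA-binding protein Lin28a and the zinc finger factor Sall4, which also mark spermatogonia, did not pass, with log2 changes of 0.089 and 0.13. Left-out libraries gave 6, 6, 8 and 10 falls with 0, 0, 0 and 3 rises, and P3 WT 7 falls with 1 rise.

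Dnmt3l and Dnmt3a of de novo DNA methylation fell, and piRNA genes passed about as often as all tested genes. Dnmt3l (chromosome 10, 78041947 to 78063622), the cofactor of de novo methylation in germ cells, had 0.412 and 0.570 RPKM in P7 Ctrl, against 18.0 and 13.9 RPKM in P3 Ctrl (log2 change -3.50 ± 0.50, adjusted p = 0.00257). The wild type had 4.65 and 2.74 RPKM in P3 WT, and the call of Dnmt3l ended against it (adjusted p = 0.0625). The methyltransferase Dnmt3a had 24.7 and 25.4 RPKM in P7 Ctrl, against 41.6 and 36.4 RPKM in P3 Ctrl (log2 change -0.62 ± 0.12, adjusted p = 0.00751), and Dnmt3b had 23.3 and 24.1 RPKM in P7 Ctrl, against 26.7 and 29.2 RPKM in P3 Ctrl and did not pass (adjusted p = 0.114). Piwil4 (Miwi2), the nuclear piRNA protein that directs methylation to transposons, had 11.1 and 12.5 RPKM in P7 Ctrl, against 24.6 and 24.0 RPKM in P3 Ctrl (log2 change -0.98 ± 0.30, adjusted p = 0.0361). Tdrd9, a helicase of the same pathway, had 27.1 and 27.1 RPKM in P7 Ctrl, against 50.6 and 46.3 RPKM in P3 Ctrl (log2 change -0.81 ± 0.12, adjusted p = 0.00293). Of 24 tested genes in this list 4 fell, 2 rose (Tdrkh and Exd1) and 18 did not pass, with a median of -0.19. The 6 that passed are close to the 26% of all tested genes. The maintenance methyltransferase Dnmt1 had 144 and 147 RPKM in P7 Ctrl, against 147 and 159 RPKM in P3 Ctrl, without passing. Left-out libraries gave 2, 2, 2 and 3 falls with 0, 0, 0 and 2 rises, and P3 WT 5 falls with 1 rise.

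**Figure D3:**
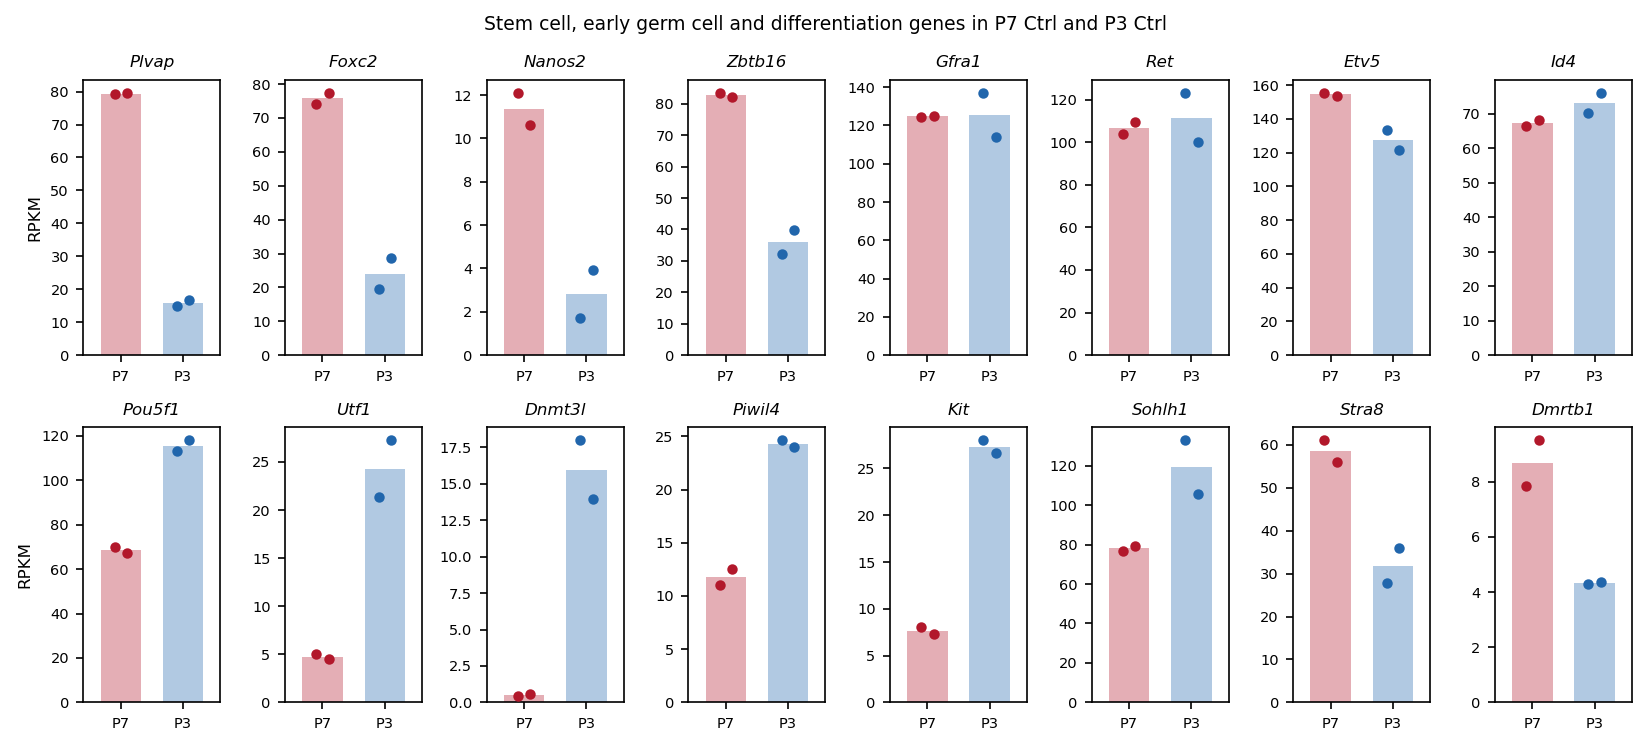
RPKM of 16 germ cell genes in P7 Ctrl (red, left) and P3 Ctrl (blue, right), 1 point per library, with bars at the mean of 2 libraries and a separate axis from 0 for each gene. Plvap, Foxc2, Nanos2 and Zbtb16 stand higher in P7 Ctrl, Gfra1, Ret, Etv5 and Id4 did not pass, and Pou5f1, Utf1, Dnmt3l, Piwil4, Kit and Sohlh1 stand lower in P7 Ctrl.

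Genes of undifferentiated spermatogonia split into some that rose and many that did not pass. Of 31 tested 9 rose, 3 fell and 19 did not pass (median 0.15). Plvap (chromosome 8, 71497765 to 71511752), a protein of fenestrated endothelium that also marks stem-like spermatogonia, had 79.2 and 79.5 RPKM in P7 Ctrl, against 15.03 and 16.7 RPKM in P3 Ctrl (log2 change 2.26 ± 0.19, adjusted p = 0.000259). Foxc2 (chromosome 8, 121116171 to 121118895), a forkhead factor of quiescent stem spermatogonia, had 74.3 and 77.3 RPKM in P7 Ctrl, against 19.6 and 28.5 RPKM in P3 Ctrl (log2 change 1.64 ± 0.29, adjusted p = 0.00496). Nanos2, the RNA-binding protein that keeps stem spermatogonia undifferentiated, had 12.1 and 10.6 RPKM in P7 Ctrl, against 1.69 and 3.93 RPKM in P3 Ctrl (log2 change 1.76 ± 0.45, adjusted p = 0.0198). Each of these 3 genes had both P7 Ctrl libraries far above both P3 Ctrl libraries. A lack of overlap alone held for every gene that passed and for 75% of all tested genes. Zbtb16 (PLZF), needed for stem cell self-renewal, had 83.4 and 82.1 RPKM in P7 Ctrl, against 32.1 and 39.9 RPKM in P3 Ctrl (log2 change 1.19 ± 0.30, adjusted p = 0.0181). Nanos3, a relative of Nanos2, had 27.9 and 28.2 RPKM in P7 Ctrl, against 10.9 and 14.2 RPKM in P3 Ctrl. The progenitor factor Sox3 had 16.03 and 15.8 RPKM in P7 Ctrl, against 9.02 and 8.62 RPKM in P3 Ctrl. Both rose. Shisa6, a membrane protein of stem-like spermatogonia, had 3.87 and 3.74 RPKM in P7 Ctrl, against 1.13 and 1.19 RPKM in P3 Ctrl (log2 change 1.15 ± 0.20, adjusted p = 0.00509). Pax7, found in a rare stem spermatogonium, had 4.82 and 4.88 RPKM in P7 Ctrl, against 2.57 and 2.39 RPKM in P3 Ctrl (log2 change 0.75 ± 0.22, adjusted p = 0.0318), and Foxo1, a regulator of stem cell maintenance, had 51.8 and 52.4 RPKM in P7 Ctrl, against 33.8 and 43.3 RPKM in P3 Ctrl (log2 change 0.44 ± 0.12, adjusted p = 0.0293). The rises of Nanos2 and Zbtb16 ended without P7 Ctrl replicate 1, P7 Ctrl replicate 2 or P3 Ctrl replicate 1. They also ended against P3 WT (adjusted p = 0.240 for Nanos2 and 0.255 for Zbtb16), where Nanos2 had 5.02 and 6.76 RPKM in P3 WT. That of Pax7 ended without any 1 of the 4 libraries and against P3 WT (adjusted p = 0.0631).

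The receptor for GDNF and several of its targets did not pass. Gfra1, the GDNF-binding receptor, had 125 and 125 RPKM in P7 Ctrl, against 137 and 114 RPKM in P3 Ctrl, and Ret, its signalling partner, had 104 and 109.7 RPKM in P7 Ctrl, against 123 and 100.1 RPKM in P3 Ctrl. Id4, an inhibitor of differentiation that marks stem cells, had 66.6 and 68.1 RPKM in P7 Ctrl, against 70.3 and 76.0 RPKM in P3 Ctrl, and Etv5, a GDNF-induced factor, had 155 and 154 RPKM in P7 Ctrl, against 134 and 121 RPKM in P3 Ctrl. The unadjusted 95% interval of a change had a median width of plus or minus 0.40 over all tested genes. Smaller changes were not detectable for a typical gene, and the adjusted threshold is stricter, so somewhat larger ones could be missed too. The stem cell members that fell were Utf1, Piwil4 and Egr4, a zinc finger factor, which had 66.5 and 69.8 RPKM in P7 Ctrl, against 183 and 129 RPKM in P3 Ctrl (log2 change -1.16 ± 0.34, adjusted p = 0.0323). In the list of GDNF, FGF and Nodal signalling 16 genes were tested, 3 fell (Gsc, Etv4 and the activin receptor Acvr2b) and none rose. The 18.8% that passed stood against 26% of all tested genes. Etv4, a factor of the same family as Etv5, had 65.04 and 65.5 RPKM in P7 Ctrl, against 164 and 127 RPKM in P3 Ctrl (log2 change -1.13 ± 0.32, adjusted p = 0.0295). Dusp6, a feedback inhibitor of ERK signalling, had 113 and 114 RPKM in P7 Ctrl, against 66.7 and 61.9 RPKM in P3 Ctrl and missed the threshold (adjusted p = 0.072). For the signalling list left-out libraries gave 1, 1, 1 and 1 falls with 0, 0, 0 and 1 rises, and P3 WT 2 falls with no rise. For the stem cell list they gave 1, 1, 1 and 2 falls with 4, 4, 4 and 8 rises, and P3 WT 3 falls with 6 rises.

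Genes of differentiating spermatogonia did not move together. Of 19 tested 3 rose, 7 fell and 9 did not pass, with a median of -0.26. Kit (chromosome 5, 75574916 to 75656722), the receptor that marks differentiating spermatogonia and is also made in primordial germ cells, had 8.10 and 7.26 RPKM in P7 Ctrl, against 28.0 and 26.7 RPKM in P3 Ctrl (log2 change -1.71 ± 0.20, adjusted p = 0.00124). For Kit the wild type had 26.6 and 30.7 RPKM in P3 WT, close to P3 Ctrl. Stra8 (chromosome 6, 34920163 to 34939344), the retinoic acid target needed for meiotic entry, had 61.03 and 56.0 RPKM in P7 Ctrl, against 27.7 and 35.9 RPKM in P3 Ctrl (log2 change 0.87 ± 0.27, adjusted p = 0.0424). Dmrtb1, which acts in the switch from mitosis to meiosis, had 7.86 and 9.50 RPKM in P7 Ctrl, against 4.28 and 4.35 RPKM in P3 Ctrl (log2 change 0.86 ± 0.17, adjusted p = 0.00826), and Dmrt1, a regulator of spermatogonial fate, had 249.6 and 243 RPKM in P7 Ctrl, against 186 and 203 RPKM in P3 Ctrl (log2 change 0.34 ± 0.085, adjusted p = 0.0181). Kit thus stood lower at day 7 and Stra8 higher, each without overlap, like every gene that passed and 75% of all tested genes. Sohlh1 and Sohlh2, helix-loop-helix factors of differentiation, had log2 changes of -0.60 and -0.38 (adjusted p = 0.043 and 0.0183). Prss50, a testis protease, had 1.04 and 1.04 RPKM in P7 Ctrl, against 10.3 and 7.20 RPKM in P3 Ctrl (log2 change -2.24 ± 0.44, adjusted p = 0.00784). The cyclin gene Ccnd2 had 136 and 137 RPKM in P7 Ctrl, against 151 and 136 RPKM in P3 Ctrl and did not pass. Left-out libraries gave 1, 1, 2 and 5 falls with 1, 0, 0 and 2 rises, and P3 WT 2 falls with no rise. The call of Stra8 ended without any 1 of the 4 libraries (adjusted p = 0.178, 0.133, 0.228 and 0.0586 in the same order). For Stra8 the wild type had 53.2 and 61.2 RPKM in P3 WT, and set against it the log2 change was 0.034 (adjusted p = 0.953).

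Among retinoic acid genes the carriers Crabp1 and Crabp2 fell. Of 17 tested (22 listed) 4 fell, none rose and 13 did not pass, a share of calls close to the 26% of all tested genes. Crabp1 and Crabp2 encode the cellular carriers of retinoic acid. Crabp1 was abundant and had 70.4 and 68.5 RPKM in P7 Ctrl, against 115 and 137 RPKM in P3 Ctrl (log2 change -0.84 ± 0.19, adjusted p = 0.0117), and Crabp2 had 0.482 and 0.934 RPKM in P7 Ctrl, against 4.94 and 4.43 RPKM in P3 Ctrl (log2 change -1.75 ± 0.40, adjusted p = 0.0136). The receptor gene Rarb fell with a log2 change of -0.83. Aldh1a2, which makes retinoic acid, had 13.2 and 12.3 RPKM in P7 Ctrl, against 22.8 and 16.4 RPKM in P3 Ctrl and did not pass (adjusted p = 0.14). Aldh1a1, an enzyme of the same family, had 15.1 and 13.9 RPKM in P7 Ctrl, against 3.40 and 3.82 RPKM in P3 Ctrl and did not pass (adjusted p = 0.427). The shared estimate of the spread includes a pair of day 3 knockout libraries with much more Sertoli RNA, given below. A fit of the 4 Ctrl libraries alone gave this list 4 falls and 1 rise. Left-out libraries gave 0, 0, 1 and 2 falls with no rise, and P3 WT no fall with 1 rise.

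Several meiotic transcripts present at day 3 were lower at day 7. Of 26 tested 6 fell, 1 rose and 19 did not pass (median -0.022), a share of calls close to the 26% of all tested genes. Mei1, needed for meiotic double-strand breaks, had 3.49 and 3.71 RPKM in P7 Ctrl, against 14.7 and 11.6 RPKM in P3 Ctrl (log2 change -1.61 ± 0.23, adjusted p = 0.00264). Spata22, a partner in meiotic recombination, had 3.49 and 2.80 RPKM in P7 Ctrl, against 16.4 and 9.10 RPKM in P3 Ctrl (log2 change -1.68 ± 0.45, adjusted p = 0.0235). Syce3 and Tex12 belong to the central element of the synaptonemal complex, the structure that holds paired chromosomes, and had log2 changes of -1.04 and -0.93. Hormad1 and the recombinase Dmc1 fell as well, Dmc1 with 15.7 and 14.6 RPKM in P7 Ctrl, against 28.4 and 23.3 RPKM in P3 Ctrl (log2 change -0.73 ± 0.18, adjusted p = 0.0178). Sycp3, a lateral element of the same complex, had 71.3 and 69.3 RPKM in P7 Ctrl, against 59.96 and 54.4 RPKM in P3 Ctrl, and Sycp1 had 47.9 and 50.04 RPKM in P7 Ctrl, against 39.2 and 45.2 RPKM in P3 Ctrl. Neither passed, nor did the cohesin gene Rec8 (adjusted p = 0.0721). Left-out libraries gave 2, 1, 2 and 4 falls with 0, 0, 0 and 1 rises, and P3 WT 1 fall with no rise. Among 10 tested spermatid genes 2 fell, Ldhc and Odf2, with log2 changes of -0.62 and -0.43, so 20% passed against 26% of all tested genes. For these left-out libraries gave 0, 0, 0 and 1 falls with no rise, and P3 WT 1 fall with 1 rise.

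Proliferation genes passed less often than all tested genes. The mitotic ones that passed rose against P3 Ctrl, while none passed as a rise against P3 WT. Of 27 tested G2 and mitosis genes 5 rose, none fell and 22 did not pass, with a median of 0.40. The 18.5% that passed, all of them rises, stood against 26% of all tested genes passing and 11.6% rising. A fit of the 4 Ctrl libraries alone gave 7 rises and no fall. Hmmr, a spindle protein, had 17.0 and 17.4 RPKM in P7 Ctrl, against 6.68 and 8.67 RPKM in P3 Ctrl (log2 change 1.08 ± 0.24, adjusted p = 0.0116), and Cdc25c, the phosphatase that starts mitosis, had 16.3 and 16.3 RPKM in P7 Ctrl, against 6.64 and 8.76 RPKM in P3 Ctrl (log2 change 1.002 ± 0.21, adjusted p = 0.0101). The kinesins Kif23 and Cenpe and the spindle protein Nusap1 rose with log2 changes of 0.72, 0.71 and 0.70. Mki67, a marker of cycling cells, had 48.6 and 42.6 RPKM in P7 Ctrl, against 31.7 and 45.9 RPKM in P3 Ctrl, so that P3 Ctrl replicate 2 lay within the range of P7 Ctrl and replicate 1 below it. Left-out libraries gave no fall with 0, 0, 0 and 7 rises. Against P3 WT none rose and 1 fell, and Cenpe and Nusap1 pointed down (log2 -0.23 and -0.17). Of 32 tested S phase genes 2 rose, 2 fell and 28 did not pass (median 0.046), so 12.5% passed against 26% of all tested genes. The replication clamp Pcna had 229.9 and 219 RPKM in P7 Ctrl, against 249.9 and 288 RPKM in P3 Ctrl, without passing, while Ccne1 (cyclin E) had 16.8 and 15.9 RPKM in P7 Ctrl, against 23.1 and 31.1 RPKM in P3 Ctrl (log2 change -0.68 ± 0.18, adjusted p = 0.0235). For the S phase list left-out libraries gave 0, 0, 1 and 0 falls with 0, 0, 0 and 1 rises, and P3 WT 6 falls with no rise.

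Most regulators of the G1 phase and targets of p53 that passed were lower. Ccnd3 (cyclin D3), which marks early postnatal germ cells, had 42.9 and 41.9 RPKM in P7 Ctrl, against 113 and 100.1 RPKM in P3 Ctrl (log2 change -1.31 ± 0.24, adjusted p = 0.00562). Cdkn1a (p21), a cell cycle inhibitor and p53 target, had 7.43 and 6.91 RPKM in P7 Ctrl, against 26.6 and 21.1 RPKM in P3 Ctrl (log2 change -1.60 ± 0.29, adjusted p = 0.00554). Cdk6 fell with a log2 change of -0.73, and Rb1, the retinoblastoma gene, rose to 34.2 and 34.0 RPKM in P7 Ctrl, against 23.8 and 21.4 RPKM in P3 Ctrl (log2 change 0.57 ± 0.14, adjusted p = 0.0188). In this list of 16 tested genes 3 fell and 1 rose, a share of calls close to the 26% of all tested genes, and Ccnd1, Ccnd2 and Cdk4 did not pass. Here left-out libraries gave 3, 2, 1 and 3 falls with no rise, and P3 WT 3 falls with 2 rises. Of 19 tested p53 targets 7 fell, 1 rose and 11 did not pass (median -0.37). Perp, a p53 target of cell adhesion, had 0.371 and 0.448 RPKM in P7 Ctrl, against 6.29 and 2.55 RPKM in P3 Ctrl (log2 change -1.85 ± 0.51, adjusted p = 0.0251), and Phlda3, an inhibitor of AKT signalling, had 3.65 and 4.15 RPKM in P7 Ctrl, against 8.97 and 11.7 RPKM in P3 Ctrl (log2 change -1.20 ± 0.24, adjusted p = 0.00844). The death genes Bbc3 (Puma) and Tnfrsf10b fell with log2 changes of -0.85 and -0.44, while Bax and Mdm2 did not pass. Among p53 targets left-out libraries gave 1, 1, 1 and 4 falls with 0, 0, 0 and 1 rises, and P3 WT 2 falls with 1 rise.

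The glycolytic and hypoxia genes that passed were lower at day 7 with 1 exception. Of 25 tested 9 fell, 1 rose and 15 did not pass, with a median of -0.33. Ldha, the lactate dehydrogenase subunit, had 24.0 and 22.4 RPKM in P7 Ctrl, against 74.6 and 65.3 RPKM in P3 Ctrl (log2 change -1.55 ± 0.23, adjusted p = 0.00272). Hk2 (hexokinase 2) had 18.6 and 18.8 RPKM in P7 Ctrl, against 42.1 and 43.3 RPKM in P3 Ctrl (log2 change -1.15 ± 0.13, adjusted p = 0.00106). Ldha had 29.7 and 34.0 RPKM in P3 WT, and its call ended against that group (log2 change -0.44, adjusted p = 0.232). That of Hk2 held there (log2 change -1.315, adjusted p = 0.00165). Glucose uptake genes fell too, Slc2a3 (GLUT3) with 14.4 and 13.6 RPKM in P7 Ctrl, against 52.4 and 34.3 RPKM in P3 Ctrl (log2 change -1.53 ± 0.43, adjusted p = 0.0289) and Slc2a1 (GLUT1) with a log2 change of -0.50. The phosphofructokinase genes Pfkl and Pfkp and the regulator Pfkfb3 had log2 changes of -1.37, -1.09 and -1.42. Gapdh, further along the pathway, had 332 and 329 RPKM in P7 Ctrl, against 217 and 325 RPKM in P3 Ctrl and did not pass. Pkm, its last enzyme, had 401 and 393 RPKM in P7 Ctrl, against 411 and 429 RPKM in P3 Ctrl and did not pass. Pdk1, which holds pyruvate back from the mitochondrion, rose to 37.0 and 37.3 RPKM in P7 Ctrl, against 24.8 and 26.3 RPKM in P3 Ctrl (log2 change 0.53 ± 0.13, adjusted p = 0.0202). Left-out libraries gave 3, 4, 3 and 7 falls with 0, 0, 0 and 1 rises, and P3 WT 3 falls with 1 rise. Of 34 tested genes of oxidative phosphorylation 5 fell, 1 rose and 28 did not pass (median 0.038), so 17.6% passed against 26% of all tested genes. The largest fall in the list was that of Cox5a, which had 224 and 231 RPKM in P7 Ctrl, against 316 and 348 RPKM in P3 Ctrl (log2 change -0.54 ± 0.082, adjusted p = 0.00291). In that list left-out libraries gave 1, 1, 3 and 2 falls with no rise, and P3 WT 2 falls with 1 rise.

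The most abundant transcripts that rose encode ribosomal proteins, among them Rps28, Rps18, Rpl23a and Rpl12, though Rpl12 pointed down (log2 -0.045) under quantile normalization. Of 39 tested 14 rose, 1 fell and 24 did not pass, with a median of 0.42 against 0.025 for all tested genes, and under quantile normalization 9 rose and 5 fell. Rps18 had 2737 and 2819.8 RPKM in P7 Ctrl, against 1507 and 1884 RPKM in P3 Ctrl (log2 change 0.72 ± 0.20, adjusted p = 0.0283), and Rps6 had 985 and 954 RPKM in P7 Ctrl, against 512 and 603 RPKM in P3 Ctrl (log2 change 0.80 ± 0.14, adjusted p = 0.00506). Rps28 had 4339 and 4378 RPKM in P7 Ctrl, against 2687 and 3093 RPKM in P3 Ctrl (log2 change 0.60 ± 0.15, adjusted p = 0.0183). The gene that fell was the X-linked Rps4x, with 251 and 247 RPKM in P7 Ctrl, against 442 and 417 RPKM in P3 Ctrl (log2 change -0.78 ± 0.18, adjusted p = 0.0127). The sum over the list was 52483 and 53114 RPKM in P7 Ctrl, against 37530.1 and 43960.2 RPKM in P3 Ctrl. Without that normalization Rpl12 had a log2 change of 0.44. Ribosomal protein genes have many near-identical copies, and how the counting shared their reads is not given in the sources used here. Left-out libraries gave 0, 0, 0 and 1 falls with 2, 2, 2 and 11 rises, and P3 WT no fall with 7 rises. Among abundant genes that fell, the iron store Fth1 had 748 and 739 RPKM in P7 Ctrl, against 1236 and 1293 RPKM in P3 Ctrl (log2 change -0.77 ± 0.11, adjusted p = 0.00285), and the cytokine Mif had 394 and 381 RPKM in P7 Ctrl, against 544 and 629 RPKM in P3 Ctrl (log2 change -0.59 ± 0.10, adjusted p = 0.00422).

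Chromatin modifiers passed about as often as all tested genes, in a balance that depended on the day 3 group. Of 24 tested enzymes and readers of H3K9 methylation 4 rose, 1 fell and 19 did not pass (median 0.34), so 20.8% passed against 26% of all tested genes. Suv39h1, a methyltransferase of constitutive heterochromatin, had 76.7 and 75.3 RPKM in P7 Ctrl, against 35.02 and 41.2 RPKM in P3 Ctrl (log2 change 0.98 ± 0.14, adjusted p = 0.00257). Setdb2, another methyltransferase, had 17.4 and 17.4 RPKM in P7 Ctrl, against 9.73 and 10.9 RPKM in P3 Ctrl (log2 change 0.71 ± 0.14, adjusted p = 0.0072). Atf7ip, the partner of Setdb1, and the demethylase Phf8 rose with log2 changes of 0.51 and 0.43. The lysine demethylase Kdm1a fell to 67.8 and 69.2 RPKM in P7 Ctrl, against 104 and 92.8 RPKM in P3 Ctrl (log2 change -0.51 ± 0.11, adjusted p = 0.0112). Ehmt2 (G9a) had 115 and 122 RPKM in P7 Ctrl, against 109 and 110.0 RPKM in P3 Ctrl and did not pass. Of 28 tested Polycomb genes and H3K27 demethylases 7 rose, 1 fell (Phc2) and 20 did not pass (median 0.28), so 28.6% passed. Ring1, a ubiquitin ligase of Polycomb complex 1, had 9.72 and 9.37 RPKM in P7 Ctrl, against 3.89 and 3.73 RPKM in P3 Ctrl (log2 change 1.13 ± 0.23, adjusted p = 0.00914), and Pcgf1, a subunit of a variant of that complex, had 17.6 and 18.0 RPKM in P7 Ctrl, against 7.55 and 9.96 RPKM in P3 Ctrl (log2 change 0.96 ± 0.30, adjusted p = 0.0399). The methyltransferase Ezh2 had 31.5 and 31.0 RPKM in P7 Ctrl, against 16.6 and 29.1 RPKM in P3 Ctrl, its P3 Ctrl replicates far apart, and did not pass. In the H3K9 list left-out libraries gave 0, 0, 0 and 1 falls with 1, 1, 1 and 8 rises, and P3 WT 2 falls with no rise. In the Polycomb list they gave 0, 0, 0 and 1 falls with 0, 0, 0 and 4 rises, and P3 WT 2 falls with 3 rises.

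X-linked germline families went in different directions. Of 22 tested Mage, Xlr and related genes 6 rose, 2 fell and 14 did not pass (median 0.20). Xlr3a, an X-linked lymphocyte-regulated family member, rose to 13.7 and 13.1 RPKM in P7 Ctrl, against 4.75 and 6.96 RPKM in P3 Ctrl. Its relative Xlr5b rose to 17.3 and 16.8 RPKM in P7 Ctrl, against 8.82 and 10.3 RPKM in P3 Ctrl. Magea8 had 13.5 and 13.6 RPKM in P7 Ctrl, against 30.4 and 26.1 RPKM in P3 Ctrl (log2 change -1.002 ± 0.17, adjusted p = 0.00459). Members of these families are near copies of each other, so single values are uncertain. Of 10 tested Rhox homeobox genes 2 fell, Rhox5 and Rhox6, and none rose, so 20% passed against 26% of all tested genes. Rhox5, which is also expressed in Sertoli cells, had 7.45 and 6.97 RPKM in P7 Ctrl, against 41.3 and 29.2 RPKM in P3 Ctrl (log2 change -2.12 ± 0.35, adjusted p = 0.00389). Rhox8, a gene of Sertoli cells, had 12.8 and 12.2 RPKM in P7 Ctrl, against 1.23 and 1.22 RPKM in P3 Ctrl and did not pass (adjusted p = 0.183). Over the whole X chromosome 482 genes were tested, of which 16.2% rose and 7.88% fell, with a median log2 change of 0.17. In the Mage and Xlr list left-out libraries gave 1, 1, 1 and 1 falls with 1, 2, 1 and 6 rises, and P3 WT 1 fall with 2 rises. In the Rhox list they gave 1, 1, 1 and 1 falls with no rise, and P3 WT 1 fall with 3 rises.

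Imprinted genes that passed were lower at day 7 against P3 Ctrl. Of 26 tested (32 listed) 9 fell, none rose and 17 did not pass (median -0.23). Grb10, a growth factor receptor adaptor, had 2.97 and 2.96 RPKM in P7 Ctrl, against 37.6 and 22.6 RPKM in P3 Ctrl (log2 change -2.93 ± 0.46, adjusted p = 0.00318). It had 7.04 and 6.94 RPKM in P3 WT, and its call ended against that group (adjusted p = 0.175). Phlda2, a growth restrictor of the placenta, had 0.864 and 0.745 RPKM in P7 Ctrl, against 11.2 and 7.55 RPKM in P3 Ctrl (log2 change -2.50 ± 0.31, adjusted p = 0.00158), and Dlk1, a Notch-like ligand, had 3.55 and 3.96 RPKM in P7 Ctrl, against 19.4 and 13.5 RPKM in P3 Ctrl (log2 change -1.86 ± 0.21, adjusted p = 0.00114). Mest had 16.4 and 17.6 RPKM in P7 Ctrl, against 43.4 and 60.1 RPKM in P3 Ctrl (log2 change -1.53 ± 0.26, adjusted p = 0.00436). For each of these 4 genes both P7 Ctrl libraries were under both P3 Ctrl libraries. Such separation held for every gene that passed and for 75% of all tested genes. The maternally expressed RNA H19 had 99.0 and 95.5 RPKM in P7 Ctrl, against 78.9 and 89.4 RPKM in P3 Ctrl, and Gnas, with several overlapping transcripts, had 119 and 118 RPKM in P7 Ctrl, against 26.9 and 47.8 RPKM in P3 Ctrl. Neither passed (adjusted p = 0.638 and 0.106). Left-out libraries gave 5, 5, 5 and 8 falls with no rise, and P3 WT 5 falls with 2 rises. A fit of the 4 libraries alone gave 11 falls and 3 rises, and the replicate number as a block gave 10 falls and 2 rises.

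Antigen presentation and interferon-stimulated genes moved both ways, with 6 of 17 tested lower and 2 higher (median -0.52). H2-D1, a class I antigen presenting molecule, had 4.96 and 4.20 RPKM in P7 Ctrl, against 23.9 and 16.3 RPKM in P3 Ctrl (log2 change -1.90 ± 0.26, adjusted p = 0.0024), and its light chain B2m had 31.0 and 32.5 RPKM in P7 Ctrl, against 50.5 and 48.7 RPKM in P3 Ctrl (log2 change -0.63 ± 0.14, adjusted p = 0.0131). The peptide loading factor Tapbp rose, with 34.3 and 39.99 RPKM in P7 Ctrl, against 14.1 and 16.3 RPKM in P3 Ctrl (log2 change 1.23 ± 0.21, adjusted p = 0.00421). Immediate early genes had 3 of 20 lower and 1 higher, so 20% passed against 26% of all tested genes. Junb had 4.39 and 4.47 RPKM in P7 Ctrl, against 29.8 and 10.6 RPKM in P3 Ctrl (log2 change -1.80 ± 0.43, adjusted p = 0.0148), with P3 Ctrl replicate 1 well above replicate 2. Klf6 rose to 5.20 and 5.31 RPKM in P7 Ctrl, against 1.55 and 1.15 RPKM in P3 Ctrl (log2 change 1.42 ± 0.28, adjusted p = 0.00725), while Fos and Egr1 did not pass, Egr1 with 131 and 131 RPKM in P7 Ctrl, against 183 and 97.8 RPKM in P3 Ctrl. Of 31 developmental homeobox genes 12 were tested, and 5 fell (Gsc, Hoxb1, Hoxb4, Msx2 and Hoxc9) while none rose. In the interferon list left-out libraries gave 1, 1, 1 and 3 falls with 2, 1, 1 and 2 rises, and P3 WT 1 fall with 1 rise. In the immediate early list they gave 0, 0, 0 and 2 falls with 0, 0, 1 and 1 rises, and P3 WT 1 fall with 1 rise, and in the homeobox list 1, 1, 2 and 2 falls with no rise, and P3 WT 1 fall with no rise.

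Markers of other testis cells were present at both ages. Against P3 Ctrl the Sertoli sums were higher and the endothelial and leukocyte sums lower in P7 Ctrl. Against P3 WT only the leukocyte direction held. Sertoli cells support the germ cells in the tubule. The 24 listed Sertoli genes summed to 316 and 336 RPKM in P7 Ctrl, against 259 and 230.0 RPKM in P3 Ctrl. Those ranges do not overlap, and the median log2 change of the 20 tested was 0.54. In P3 WT the sum was 308 and 354 RPKM, a range that includes both P7 Ctrl libraries. Amh, the hormone of immature Sertoli cells, had 4.14 and 4.70 RPKM in P7 Ctrl, against 3.09 and 3.84 RPKM in P3 Ctrl, and Sox9, their defining transcription factor, had 1.53 and 2.02 RPKM in P7 Ctrl, against 1.21 and 1.09 RPKM in P3 Ctrl. Aard, a gene of Sertoli cells, had 42.7 and 48.6 RPKM in P7 Ctrl, against 3.71 and 3.998 RPKM in P3 Ctrl. The cystatin Cst9 had 22.4 and 21.2 RPKM in P7 Ctrl, against 1.49 and 3.05 RPKM in P3 Ctrl. These 4 genes did not pass. In this list Cldn11 rose, to 7.17 and 7.07 RPKM in P7 Ctrl, against 0.660 and 0.416 RPKM in P3 Ctrl (log2 change 2.40 ± 0.78, adjusted p = 0.0455), Rhox5 fell and 18 did not pass. A pair of day 3 knockout libraries that hold much more Sertoli RNA (list sums of 1288 and 1529 RPKM) enters the shared estimate of the spread, and without it 11 Sertoli genes were higher and 3 lower. Left-out control libraries gave 1, 1, 1 and 1 falls with no rise, and P3 WT 1 fall with no rise. The rise of Cldn11 moves with the Sertoli sums, and their part in it was not tested.

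Endothelial genes had 9 of 14 tested lower and 2 higher, with a median of -0.91. Pecam1, the endothelial adhesion molecule, had 1.53 and 1.61 RPKM in P7 Ctrl, against 17.4 and 7.95 RPKM in P3 Ctrl (log2 change -2.32 ± 0.50, adjusted p = 0.01). The transcription factor Sox18 had 8.01 and 6.26 RPKM in P7 Ctrl, against 19.7 and 21.5 RPKM in P3 Ctrl (log2 change -1.42 ± 0.28, adjusted p = 0.00733), and the receptor subunit Ramp2 had 13.7 and 13.6 RPKM in P7 Ctrl, against 62.8 and 60.6 RPKM in P3 Ctrl (log2 change -2.10 ± 0.23, adjusted p = 0.00103). The members that rose were Plvap, which spermatogonia also express, and the VEGF receptor Kdr, with 3.66 and 3.76 RPKM in P7 Ctrl, against 1.68 and 1.98 RPKM in P3 Ctrl (log2 change 0.74 ± 0.16, adjusted p = 0.0118). The endothelial sum, over the 19 listed genes, was 152 and 154 RPKM in P7 Ctrl, against 189.9 and 182 RPKM in P3 Ctrl. It includes Plvap, which rose (log2 change 2.26), so the other members together fell by more than this sum shows. In P3 WT the endothelial sum was 130 and 115 RPKM, under both P7 Ctrl libraries. Left-out libraries gave 3, 2, 3 and 6 falls with 1, 1, 1 and 2 rises, and P3 WT 1 fall with 2 rises. Stromal markers had 3 of 9 lower (Des, Cnn1 and Tagln), Des (desmin) with 0.293 and 0.240 RPKM in P7 Ctrl, against 5.26 and 2.83 RPKM in P3 Ctrl (log2 change -1.95 ± 0.34, adjusted p = 0.0047). There left-out libraries gave 1, 1, 1 and 3 falls with no rise, and P3 WT no fall with 1 rise. Leukocyte markers had 2 of 5 lower, Fcer1g, a subunit of the IgE receptor, with 15.1 and 14.5 RPKM in P7 Ctrl, against 62.2 and 44.5 RPKM in P3 Ctrl (log2 change -1.76 ± 0.40, adjusted p = 0.0122), and Cd68. For leukocyte markers left-out libraries gave 0, 0, 0 and 2 falls with no rise, and P3 WT no fall with no rise. Of 2 tested erythroid genes Alas2, the enzyme of heme synthesis, fell to 0.194 and 0.272 RPKM in P7 Ctrl, against 2.99 and 2.17 RPKM in P3 Ctrl (log2 change -1.53 ± 0.22, adjusted p = 0.00264), with each library left out and against P3 WT as well, and none of 3 tested Leydig genes passed. The stromal sum was 56.6 and 58.7 RPKM in P7 Ctrl, against 66.8 and 51.9 RPKM in P3 Ctrl, and the leukocyte sum was 26.2 and 26.4 RPKM in P7 Ctrl, against 88.3 and 62.0 RPKM in P3 Ctrl. The stromal ranges overlap. The leukocyte sum was 43.1 and 43.3 RPKM in P3 WT, between P7 Ctrl and P3 Ctrl. The endothelial and leukocyte sums move with the falls of keratin and matrix genes, and their part in those falls was not tested.

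**Figure D4:**
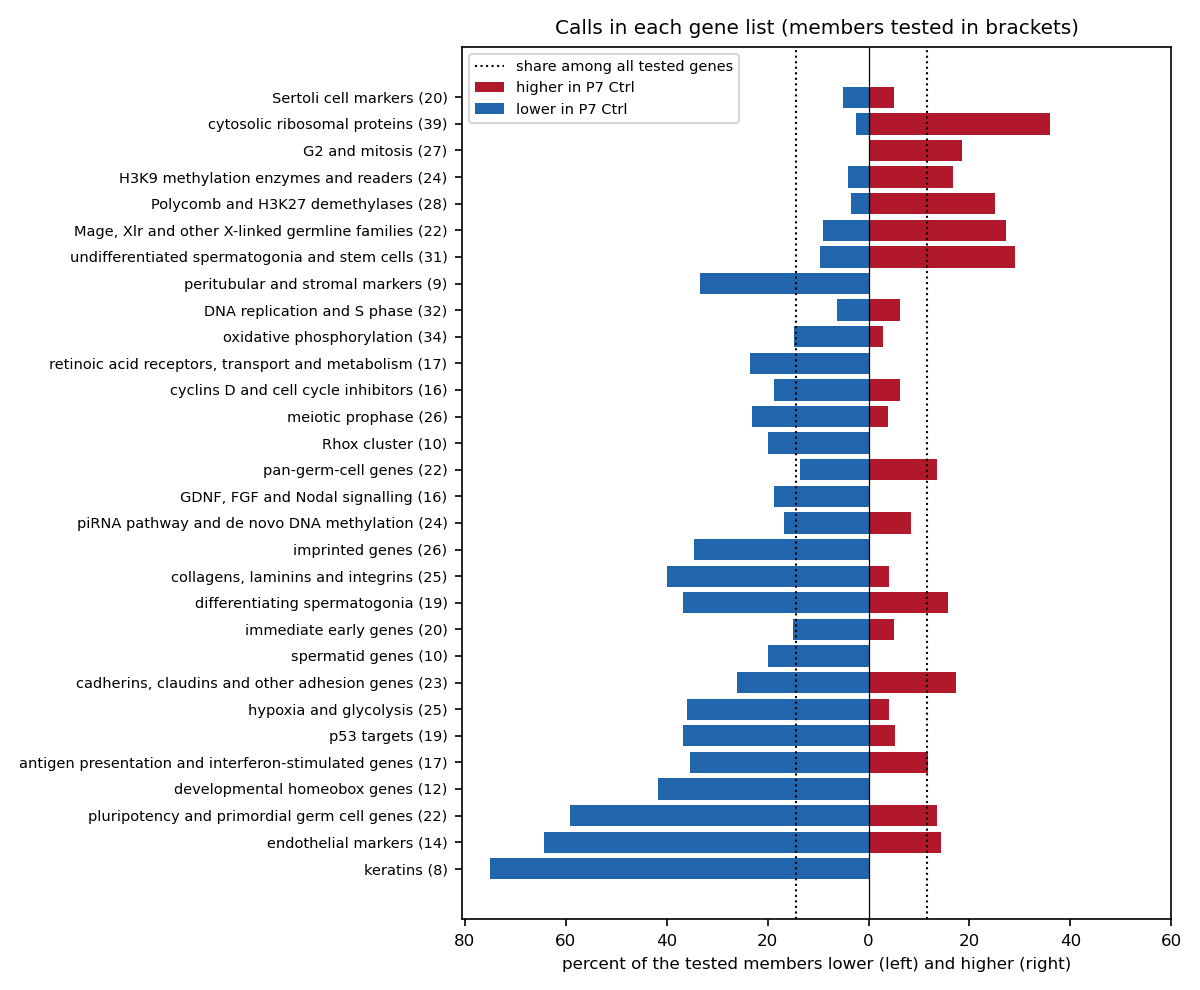
Percent of the tested members of each gene list that were lower (blue, left) or higher (red, right) in P7 Ctrl, with the number tested in brackets and lists of at least 8 tested genes shown. The dotted lines mark the shares over all tested genes, 14.4% lower and 11.6% higher.

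The largest rises included secreted factors, gap junction and chromatin genes. Rspo2 (chromosome 15, 43020794 to 43170826), a secreted amplifier of Wnt signalling, had 27.2 and 28.7 RPKM in P7 Ctrl, against 1.72 and 3.13 RPKM in P3 Ctrl (log2 change 3.11 ± 0.38, adjusted p = 0.00158). Gjb2 (chromosome 14, 57098600 to 57104702), a connexin, had 11.9 and 11.5 RPKM in P7 Ctrl, against 1.07 and 1.28 RPKM in P3 Ctrl (log2 change 2.55 ± 0.18, adjusted p = 0.000156). Ppfibp2, a liprin, had 34.2 and 35.05 RPKM in P7 Ctrl, against 6.94 and 5.62 RPKM in P3 Ctrl (log2 change 2.30 ± 0.18, adjusted p = 0.000242). For these 3 both P7 Ctrl libraries lay far above both P3 Ctrl libraries, though a lack of overlap alone held for 75% of all tested genes. Hmgn5, an X-linked nucleosome-binding protein, had 16.5 and 17.4 RPKM in P7 Ctrl, against 1.82 and 2.19 RPKM in P3 Ctrl (log2 change 2.58 ± 0.62, adjusted p = 0.0153), and Brwd3, an X-linked bromodomain protein, had 21.4 and 22.3 RPKM in P7 Ctrl, against 3.36 and 4.69 RPKM in P3 Ctrl (log2 change 2.20 ± 0.35, adjusted p = 0.0034). The homeobox factor Barhl2 had 12.5 and 12.2 RPKM in P7 Ctrl, against 1.63 and 2.19 RPKM in P3 Ctrl (log2 change 2.20 ± 0.25, adjusted p = 0.00114) and the forkhead factor Foxi3 had 11.8 and 12.4 RPKM in P7 Ctrl, against 1.57 and 2.51 RPKM in P3 Ctrl (log2 change 2.13 ± 0.18, adjusted p = 0.000322). Basp1, a membrane-bound signalling protein, rose with a log2 change of 2.27, the galactosidase-like gene Glb1l3 with 2.18, Lrrc56 with 1.99 and the transcription factor Mypop with 1.92. Gsta3, a glutathione transferase, had 12.2 and 10.5 RPKM in P7 Ctrl, against 1.83 and 2.76 RPKM in P3 Ctrl (log2 change 1.92 ± 0.61, adjusted p = 0.0444). It had 8.70 and 11.7 RPKM in P3 WT, next to P7 Ctrl. The phosphodiesterase Pde4c had 10.5 and 10.6 RPKM in P7 Ctrl, against 2.66 and 1.71 RPKM in P3 Ctrl (log2 change 1.88 ± 0.27, adjusted p = 0.00264). The Sertoli-rich pair of day 3 knockout libraries (1 of Jmjd1a and 1 of Jmjd1b) was above the other replicates of the same genotypes for several of these genes. Hmgn5 had 8.17 and 11.002 RPKM in the Sertoli-rich pair and 1.99 and 1.78 RPKM in the other replicates. Gsta3 had 6.99 and 12.1 RPKM in the Sertoli-rich pair and 1.53 and 2.22 RPKM in the other replicates. Basp1 had 8.43 and 8.82 RPKM in the Sertoli-rich pair and 3.17 and 1.52 RPKM in the other replicates. Glb1l3 had 2.77 and 2.89 RPKM in the Sertoli-rich pair and 0.856 and 0.274 RPKM in the other replicates. The part of Sertoli RNA in these rises was not tested. The calls of Basp1 and Gsta3 ended without any 1 of the 4 libraries, and those of Hmgn5, Glb1l3 and Mypop without P7 Ctrl replicate 1, P7 Ctrl replicate 2 or P3 Ctrl replicate 1.

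The wild type gives another day 3 level, though P3 Ctrl and P3 WT differ in genotype and Cre and not in age. Both P3 WT libraries lay between P7 Ctrl and P3 Ctrl for 14 of the 15 largest falls and 10 of the 15 largest rises. Of the 165 named calls between the ages 65 held with P3 WT as the day 3 group. Leaving out P7 Ctrl replicate 1, P7 Ctrl replicate 2, P3 Ctrl replicate 1 and P3 Ctrl replicate 2 kept 63, 62, 67 and 125. Of the 165, 36 held under every alternative in which the gene was tested. The alternatives include an added 2-fold limit, which ends any call under 2-fold, here 65 of the 165. For Cox5a, Fth1, Mif, Rps6, Tdrd9 and Xlr5b that limit alone ended the call. Of these 36, 5 (Alas2, Lama1, Nkx2-3, Qprt and Tnnt2) had a mean under 5 RPKM and were not tested in the fit limited to higher genes. Those that rose in this set were Rspo2, Gjb2, Plvap, Ppfibp2, Foxc2, Barhl2, Foxi3, Lrrc56 and Dmrt2. Those that fell were Krt18, Krt8, Krt19, Gsc, Sdc3, Plac8, Dapk1, Nkx2-3, Tnnt2, Qprt, Kit, Utf1, Alpl, Mei1, Ccnd3, Hk2, Col4a1, Lama1, Lamb1, Dlk1, Mest, Phlda2, Magea8, Rhox5, H2-D1, Ramp2 and Alas2. Exons of many of the genes named here, among them Dnmt3l, Col4a1, Ccnd3, Mest, Junb, Nusap1, Ppfibp2, Cxadr, Tdrkh, Rb1, Rfc4 and Lrrc56, overlap those of a gene on the opposite strand, and exons of Ramp2 and Tapbp overlap those of a neighbour on the same strand. The counting is not stated to use strand, so reads of such partners cannot be told apart.

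A further comparison asks whether the change with age depends on the genotype. The age change in Ctrl was set against the age change in DKO cells with the interaction contrast of the same fit, which tests the difference itself. It passed for 3339 genes (25.4%), 1512 with the higher value in Ctrl (11.5%) and 1827 with the lower (13.9%). The total was 1744 without P7 Ctrl replicate 1, 1736 without P7 Ctrl replicate 2, 2179 without P3 Ctrl replicate 2 and 1849 without P3 DKO replicate 2. In the stem cell list 17 of 31 changes were higher in Ctrl and 2 lower, and the medians were 0.15 in Ctrl and -1.30 in DKO. Plvap had 79.2 and 79.5 RPKM in P7 Ctrl, against 15.03 and 16.7 RPKM in P3 Ctrl, and 0.749 and 0.895 RPKM in P7 DKO, against 7.20 and 9.38 RPKM in P3 DKO (difference 4.60 ± 0.26, adjusted p = 2.68e-05). Pax7 had 4.82 and 4.88 RPKM in P7 Ctrl, against 2.57 and 2.39 RPKM in P3 Ctrl, and 0.0392 and 0 RPKM in P7 DKO, against 9.24 and 6.45 RPKM in P3 DKO (difference 3.85 ± 0.31, adjusted p = 0.000154). Both were thus higher at day 7 in Ctrl and lower at day 7 in DKO. Foxc2 had 3.64 and 1.97 RPKM in P7 DKO, against 10.8 and 21.2 RPKM in P3 DKO (difference 3.76 ± 0.41, adjusted p = 0.000558). The differences of Bmp4, a secreted signalling factor, and Dmrt2, a doublesex-related factor, were 3.65 and 3.68. Those of Batf, Ppfibp2 and Gjb2 were 3.63, 3.55 and 3.43.

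Differentiation, replication and respiration genes differed in the opposite direction. Of 19 differentiation genes 8 changes were lower in Ctrl and 2 higher. Dmrtb1 had 7.86 and 9.50 RPKM in P7 Ctrl, against 4.28 and 4.35 RPKM in P3 Ctrl, and 143 and 154 RPKM in P7 DKO, against 8.25 and 8.46 RPKM in P3 DKO (difference -3.14 ± 0.25, adjusted p = 0.000135). Stra8 had 172 and 276 RPKM in P7 DKO, against 21.3 and 20.7 RPKM in P3 DKO (difference -2.44 ± 0.39, adjusted p = 0.00249), and thus stood higher at day 7 in both genotypes, by different amounts. Of 32 S phase genes 20 changes were lower in Ctrl and none higher, with medians of 0.046 in Ctrl and 0.86 in DKO. In the oxidative phosphorylation list 25 of 34 were lower in Ctrl (medians 0.038 in Ctrl and 0.80 in DKO), and in the ribosomal list 11 of 39 (medians 0.42 in Ctrl and 0.99 in DKO), where Rps28 pointed the other way under quantile normalization (0.20). Among Mage and Xlr genes 11 of 22 were lower in Ctrl, and among meiotic genes 9 of 26. Other large differences with the lower value in Ctrl were those of the growth factor Mdk (-3.30), the methyltransferase Lcmt2 (-3.29), Cthrc1 (-3.22), Xaf1 (-2.87), Omd (-2.88) and the linker histone gene Hist1h1a (-2.99).

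**Figure D5:**
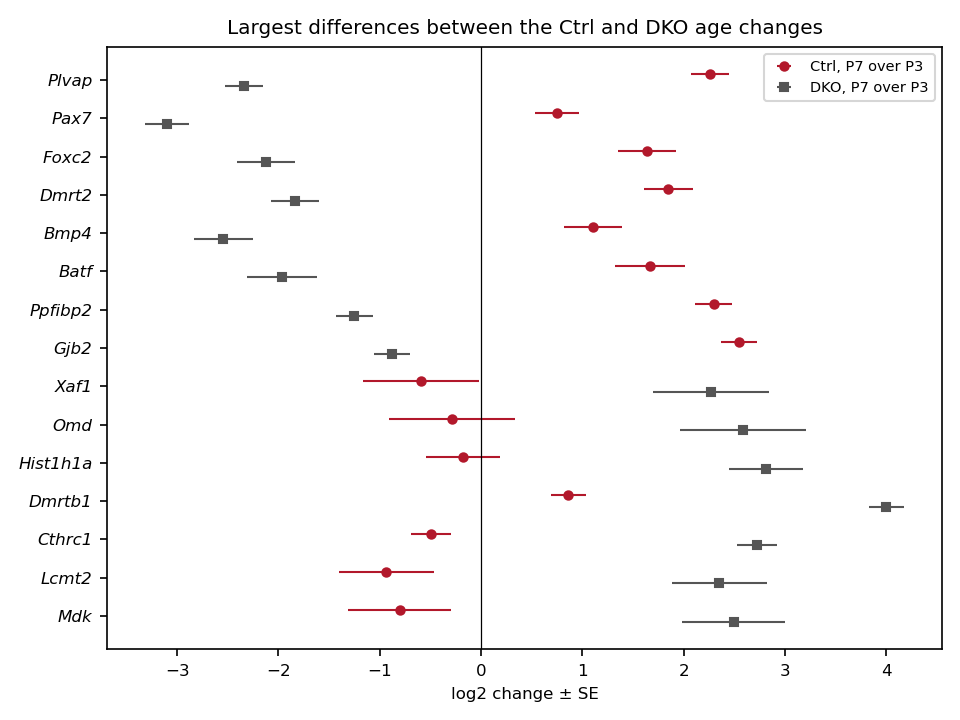
Log2 change from day 3 to day 7 (horizontal axis, ± SE) in Ctrl (red circles) and in DKO (grey squares) for the 8 genes with the largest difference upward in Ctrl and 7 of the 8 with the largest downward. The 8 at the top have a positive change in Ctrl and a negative one in DKO, from a difference of 4.60 for Plvap to 3.43 for Gjb2.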

How the data were processed

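RNA of postnatal male germ cells was sequenced in 14 libraries, 2 in each of 7 groups. The authors deposited RPKM values for 24340 gene symbols, and per the submitters' processing notes TopHat2 2.1.1, Cufflinks 2.1.1 and the mm10 build were used. Per the labels' protocols the libraries were made with a stranded mRNA kit. Whether the counting used strand is not given in the sources used here.

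From these values log2(RPKM + 1) was computed, and the 13163 genes with 1 RPKM or more in at least 2 of the 4 Ctrl libraries were tested. R 4.3.3 and limma 3.58.1 fitted 1 mean per group over all 14 libraries with a trended prior (7 residual degrees of freedom), two-sided, with Benjamini-Hochberg adjustment and a threshold of 0.05. The contrasts were P7 Ctrl minus P3 Ctrl and its difference from P7 DKO minus P3 DKO. Tables were made with Python 3.11.15, pandas 2.3.3 and numpy 2.4.6. In simulated data of 13163 genes for the age comparison, 100 genes were changed by 1 and 100 by 2 on the log2 scale. The fit recovered 76% and 93% of these, with 11 false calls. The changed genes were drawn only from those above 5 RPKM. Recovery of lower genes was not tested, so these shares do not describe them. Depth was estimated from the steps between low RPKM values, so intervals and limits from it cover counting error only. Gene coordinates are those of GENCODE M21 (GRCm38), which held 95.8% of the symbols.

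Genes were named by a rule. It takes the 15 largest changes each way with no overlap between the groups, the 6 most abundant calls each way, up to 5 calls from each list, and the 8 largest differences from DKO each way. Members named beside these, most of them short of the threshold, were chosen after their values were seen. The genes and lists were chosen with earlier results of these data known. Predicted genes and small RNA loci were counted and not named, and some genes that the rule picks are not reported here. Alternatives changed the filter, pseudocount, scaling, variance model, day 3 group, samples in the fit and replicate block, added a 2-fold limit, or left out 1 library.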

Additional observations from a re-analysis of the deposited data

Results flagged for a closer look

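Among the genes named in the comparison of the ages, the change with age differed between Ctrl and DKO for those listed here, by the interaction contrast of the limma fit (adjusted p under 0.05 in each). The values are the log2 change in Ctrl minus that in DKO.

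The value was higher in Ctrl for stem cell genes and several of the largest rises. It was 4.60 for Plvap, 3.85 for Pax7, 3.76 for Foxc2, 3.68 for Dmrt2, 3.65 for Bmp4, 3.63 for Batf, 3.55 for Ppfibp2, 3.43 for Gjb2 and 3.37 for Barhl2. It was 2.33 for Nanos2, 2.31 for Piwil4, 1.37 for Zbtb16, 1.25 for Foxi3, 1.75 for Lrrc56 and 1.48 for Pde4c. Outside these it was 1.75 for Fcer1g, 1.58 for Ldhc, 1.49 for Tapbp and 1.30 for Hoxc9. Smaller values were 0.65 for Rb1, 0.61 for Kdm3a, 0.61 for Tdrd9, 0.55 for Dnmt3a and 0.44 for Phf8. Kdm3a is a targeted gene, so its value rests on the DKO libraries in which it is deleted.

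It was lower in Ctrl for differentiation genes, with -3.14 for Dmrtb1, -2.44 for Stra8, -1.49 for Kit and -1.38 for Crabp1. Large values were also those of Mdk (-3.30), Lcmt2 (-3.29), Cthrc1 (-3.22), Hist1h1a (-2.99), Omd (-2.88) and Xaf1 (-2.87). Respiratory chain genes had -2.12 for Ndufa1, -1.26 for Cox5a and -1.26 for Atp5a1. Genes of DNA replication and the cell cycle had -1.43 for Cdc6, -1.36 for Ccne1 and -0.64 for Rfc4. X-linked and imprinted genes had -2.00 for Magea8, -1.70 for Esx1, -0.61 for Xlr5b and -1.63 for Airn. Abundant transcripts had -0.80 for Fth1, -0.76 for Mif, -0.73 for Gng5, -0.70 for Rps28, -0.66 for Rpl12 and -0.41 for Actg1. The others were H2-D1 (-1.25), Acvr2b (-1.15), Ramp2 (-1.15), Plk2 (-1.01), Fdx1 (-0.79), Aebp2 (-0.75) and Odf2 (-0.74).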

How the results depend on the processing

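Of the 165 named calls between the ages 36 held under every alternative in which they were tested, and of the 59 named differences from DKO 29 did. The added 2-fold limit counts among these alternatives. It ends any call or difference under 2-fold, here 65 of the 165 and 17 of the 59. In the fit of genes with a mean of 5 RPKM or more 41 of the 165 (5 of the 36) and 6 of the 59 (3 of the 29) were not tested. With P3 WT in place of P3 Ctrl 1530 genes passed, 786 higher and 744 lower in P7 Ctrl. There Cenpe (-0.23), Nusap1 (-0.17), Esx1 (0.15), Hoxc9 (0.15), Ldhc (0.38), Rhox6 (0.18) and Rps4x (0.087) turned their direction, and the cause was not tested. A 2-fold limit left 1083 calls with 227 higher and 856 lower, and 1553 differences with 913 higher and 640 lower in Ctrl. A mean of 5 RPKM or more, with fewer genes tested, left 2217 calls with 1225 higher and 992 lower, and 1007 differences higher in Ctrl. Quantile normalization gave 1688 genes higher and 1588 lower at P7, and 1144 differences lower in Ctrl and turned Rpl12 (-0.045 with age) and, for the difference, Actg1 (0.30) and Rps28 (0.20). The cause was not tested.

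Leaving out 1 library moved the calls between 697 and 2616, with 241 to 1200 higher and 456 to 1416 lower. The differences moved between 1736 and 3389, with 786 to 1604 higher and 946 to 1785 lower in Ctrl. With 1 sample left in a group, that sample is assumed to vary like the other groups. All other alternatives left the 6 counts within 1.5 times. Those without the 2 libraries with high Sertoli transcripts were at the upper end, with 4840 calls, and the fit of the 4 libraries alone gave 4707.

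A fit with the replicate number as a block gave 4391 calls, 2330 lower and 2061 higher in P7 Ctrl, and 4070 differences. The labels do not say that the numbers pair the libraries, and same-numbered libraries had deviations correlated at only 0.117 over the 2 pairs. Each of the 165 named calls passed with the block too.

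Depth limits low genes most, since 3 fragments at 2 kb equal 0.0694 and 0.0605 RPKM in P7 Ctrl, against 0.0381 and 0.0342 RPKM in P3 Ctrl. Changes under about 0.40 on the log2 scale, from the unadjusted 95% interval, were not detectable for a typical gene. The adjusted threshold is stricter, so somewhat larger ones could be missed too.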
